A study of Rattus norvegicus with 32 samples.

Results

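The microglia and complement genes are 32 listed genes that mark or regulate microglia, the resident macrophages of the brain, or that encode early complement proteins. All 32 were found by symbol in the deposited table of 22587 genes, and the rule that names them uses no expression value, although the list was drawn up with earlier results of these data known. Their mRNA levels were compared in brainstem and hypothalamus of Wistar Kyoto rats aged 13 weeks. The 8 groups of 4 libraries were ADREX ozone, ADREX air, sham ozone and sham air in each tissue. ADREX is adrenalectomy, removal of the adrenal glands, and sham rats had the operation without it. Ozone was given at 0.8 ppm for 4 hours, air rats breathed filtered air for the same time, and tissue was frozen at once after exposure. All rats had surgery, and hormone replacement after ADREX is not described in what was available here.

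Microglia read their surroundings through receptors such as Csf1r, which takes up survival signals from Csf1, the fractalkine receptor Cx3cr1 and the ADP receptors P2ry12 and P2ry13. The transcription factors Spi1 (PU.1) and Irf8 set up their identity, and phosphatases, kinases and adaptors such as Ptprc, Inpp5d, Lyn and Tyrobp tune signalling below the receptors. C1q starts the classical complement pathway and C3 is its central component. C3 can tag material that microglia take up through the complement receptor formed by Itgam and Itgb2. Glucocorticoids from the adrenal cortex are known to act on many macrophage genes.

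Of the 32 genes, 22 had an entry in the RefSeq promoter table of the assembly GRCr8, whose windows run from 250 bases before to 50 bases after the start of a gene. Rab7b, Adgre1, Ptprc and Ctss are shown because they passed the test for ADREX ozone against sham ozone in brainstem, described below, and have an entry. Csf1 and Aif1, which passed too, have none. Capitals mark GAGGAA or its reverse complement, the core of a motif bound by PU.1 and other ETS factors. The windows are chr13:45673195-45673494 on the plus strand, chr9:2329190-2329489 on the plus strand, chr13:52259697-52259996 on the minus strand and chr2:185775146-185775445 on the plus strand, each written 5′ to 3′ along the gene.
Rab7b: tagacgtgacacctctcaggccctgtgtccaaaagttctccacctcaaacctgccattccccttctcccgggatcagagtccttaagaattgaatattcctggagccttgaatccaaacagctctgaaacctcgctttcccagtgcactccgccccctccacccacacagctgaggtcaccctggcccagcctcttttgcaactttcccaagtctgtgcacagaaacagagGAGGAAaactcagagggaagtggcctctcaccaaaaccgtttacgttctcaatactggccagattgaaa
Adgre1: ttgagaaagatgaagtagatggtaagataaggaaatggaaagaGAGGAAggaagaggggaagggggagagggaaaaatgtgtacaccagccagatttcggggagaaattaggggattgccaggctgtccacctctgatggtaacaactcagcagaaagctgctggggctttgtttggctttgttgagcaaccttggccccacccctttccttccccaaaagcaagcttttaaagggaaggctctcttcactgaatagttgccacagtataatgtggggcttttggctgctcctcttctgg
Ptprc: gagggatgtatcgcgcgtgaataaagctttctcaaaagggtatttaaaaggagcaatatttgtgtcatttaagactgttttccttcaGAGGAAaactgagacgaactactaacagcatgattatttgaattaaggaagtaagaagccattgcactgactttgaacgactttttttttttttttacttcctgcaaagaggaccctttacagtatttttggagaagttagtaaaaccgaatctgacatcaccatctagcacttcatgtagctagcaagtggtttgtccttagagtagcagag
Ctss: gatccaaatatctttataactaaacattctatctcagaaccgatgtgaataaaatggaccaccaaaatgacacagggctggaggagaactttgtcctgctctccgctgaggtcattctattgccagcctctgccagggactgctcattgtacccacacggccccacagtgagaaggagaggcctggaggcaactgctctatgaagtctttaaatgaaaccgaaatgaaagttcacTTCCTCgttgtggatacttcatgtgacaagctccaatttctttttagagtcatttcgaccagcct

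In these windows the marked letters begin at position -19 in Rab7b, -207 in Adgre1, -163 in Ptprc and -15 in Ctss, counted from the gene start. GAGGAA, searched on both strands, was in 15 of the 22 windows of the listed genes and in 27.6% of the 33469 windows in the table. The longer PU.1 motif GAGGAAGT, which contains it, was in 5 of 22 (Cd37, Ctss, Cd53, Vav1 and Inpp5d) and in 2.42% of all windows. A match is a run of letters and not a measured binding site.

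Libraries held 6.44 to 12.4 M reads and 17570 to 18584 genes with at least 1 read. The tissue labels matched regional transcripts. The hypothalamic peptides Hcrt, Pmch, Oxt and Agrp summed to 2838 to 4400 normalized counts in hypothalamus and to 14.9 to 106 in brainstem, and 4 hindbrain Hox genes summed to 0 to 13.2 in hypothalamus and to 334 to 1102 in brainstem. In ozone, ADREX and sham libraries were set apart by Fkbp5, a gene induced by glucocorticoids, which ranged from 173 to 235 in ADREX ozone brainstem, against 1146 to 1410 in sham ozone brainstem, and from 211 to 231 in ADREX ozone hypothalamus, against 947 to 1363 in sham ozone hypothalamus. In air the Fkbp5 ranges overlapped, at 193 to 262.5 in ADREX and 234 to 304 in sham brainstem, and at 189 to 247 in ADREX and 209 to 342 in sham hypothalamus. In 4 libraries, a list of 20 liver transcripts exceeded 2000 reads per M reads (RPM). One was brainstem sham ozone 18, and 3 were hypothalamus libraries, ADREX air 68, sham ozone 18 and sham air 2. Albumin (Alb) lay at 1399 to 2239 RPM in these 4 and at 5.6 to 645.3 RPM in the other 28 libraries. Of that list, Itih3 was at 323 RPM or more in every library. Markers of blood leukocytes summed to 1.91 to 12.7 RPM, and those of border macrophages, which line vessels and meninges, to 18.9 to 44.9 RPM.

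None of the 32 genes had 0 reads in any library. Cd68, a lysosomal glycoprotein of phagocytes, ranged from 1.02 to 21.2 normalized counts and Spi1 from 1.89 to 20.5, and both fell under the mean of 10 set for testing, which left 30 genes. In these bulk tissues, fewer cells of a type and less RNA per cell cannot be told apart. The labels do not say that libraries of a group came from separate animals, so p-values reflect only how far these libraries spread. Values per library are normalized counts, listed by library number (81 to 84 in ADREX ozone, 65 to 68 in ADREX air, 17 to 20 in sham ozone and 1 to 4 in sham air). A change is a difference on the log2(value + 1) scale, which understates the change of low genes, and it passed the test at an adjusted p under 0.05 in limma over all genes tested. Normalized counts are not corrected for gene length, so levels are not compared between genes.

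The sum of the listed genes without C3 differed most between groups in brainstem. Its median was 583.4 RPM in ADREX ozone, 577.2 RPM in ADREX air, 484 RPM in sham ozone and 563.1 RPM in sham air brainstem. In hypothalamus the medians were 521.2 RPM in ADREX ozone, 516 RPM in ADREX air, 481.6 RPM in sham ozone and 496.6 RPM in sham air. By median, sham ozone was the lowest of the 4 groups in both tissues. Its brainstem range of 467.7 to 555.6 RPM overlapped that of sham air (529.2 to 570.7 RPM) through the liver-rich sham ozone 18 alone. Sham ozone 17, 19 and 20, at 479.3, 488.7 and 467.7 RPM, lay below all sham air libraries. The whole sham ozone range lay below ADREX air (558.7 to 595.7 RPM) and ADREX ozone (581.8 to 605.6 RPM) in brainstem. In hypothalamus the sham ozone range of 468.6 to 492.9 RPM overlapped sham air (481.5 to 534.5), ADREX air (490.8 to 573.6) and ADREX ozone (491.8 to 540.8). The overlap with the ADREX groups came from sham ozone 18 alone, at 492.9 RPM. Differences in this sum were not tested. The heat map of changes shows the same contrasts gene by gene.

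**Figure D1:**
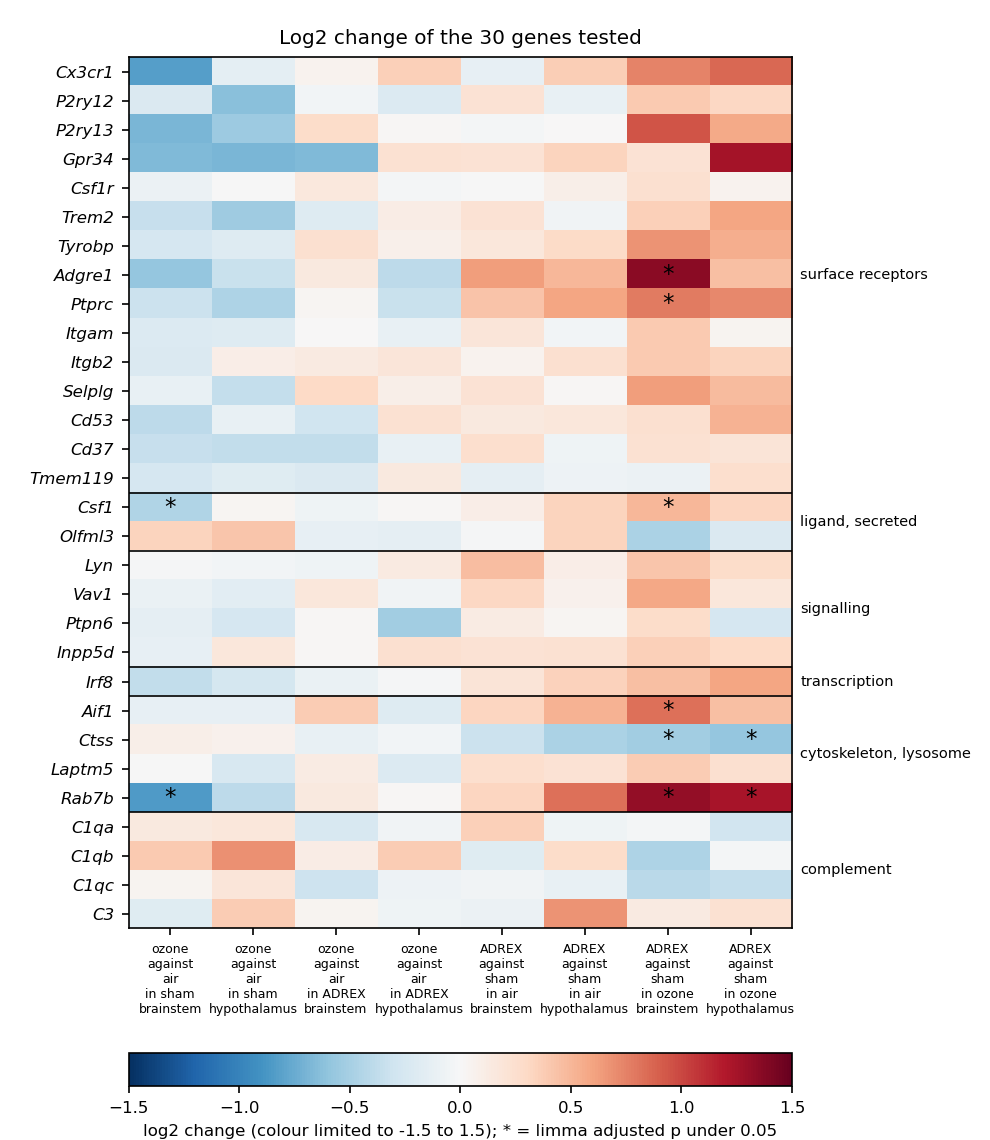
Log2 changes of the 30 tested genes (rows) in the comparisons within each tissue (columns), on a colour scale centred at 0; asterisks show changes that passed the test. The 2 columns for ADREX against sham in ozone hold 8 of the 10 asterisks, among them Rab7b at 1.31 in brainstem and 1.24 in hypothalamus.

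Set against sham ozone, ADREX ozone brainstem showed higher mRNA of 5 of the 30 tested genes and lower mRNA of Ctss. The 5 genes that were higher were Rab7b, Adgre1, Csf1, Aif1 and Ptprc, by 0.49 to 1.35 on the log2 scale (1.19% of all genes were higher), and Ctss, which encodes the lysosomal protease cathepsin S, fell by 0.52 (1.25% were lower). They are 6 of 30 genes, where 2.44% of 14408 genes passed. At an unadjusted p under 0.05 there were 16 of 30, against 11.2% of all genes. Changes were positive for 24 of the 30 genes with a median of 0.39, while 49.1% of all genes had a positive change.

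Rab7b encodes a GTPase of late endosomes and lysosomes. It had 113, 96.8, 107 and 90.3 normalized counts in ADREX ozone brainstem, against 38.2, 45.7, 50.4 and 29.5 in sham ozone brainstem. The lowest ADREX ozone library lay well above the highest sham ozone library, a change of 1.31 ± 0.17 (SE; adjusted p = 0.000349). In air, Rab7b had 106, 79.5, 84.1 and 99.6 in ADREX brainstem, against 71.1, 81.2, 58.1 and 85.1 in sham brainstem, groups that overlapped. Sham ozone therefore held the 4 lowest of the 16 brainstem libraries for this gene.

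Adgre1 encodes F4/80, an adhesion receptor used to mark macrophages. It had 87.2, 63.7, 52.6 and 70.1 in ADREX ozone brainstem, against 28.4, 25.4, 27.4 and 22.4 in sham ozone brainstem. No ADREX ozone library reached down to the sham ozone range, and the change was 1.35 ± 0.23 (adjusted p = 0.00268). Adgre1 had 65.97, 73.7, 62.5 and 44.4 in ADREX air and 45.2, 44.8, 23.9 and 47.8 in sham air, of which sham air 3 lay among the sham ozone values. The calls of Rab7b and Adgre1 held in every alternative run that tested them, including each library left out. Adgre1, with a brainstem mean of 49.1, was not tested with the filter at a mean of 50.

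Csf1 encodes the growth factor that sustains microglia through Csf1r. Its values were 498, 541, 504 and 587 in ADREX ozone brainstem, against 373, 408, 380.2 and 349 in sham ozone brainstem, with 574, 528, 558 and 558 in ADREX air and 527, 510.4, 498 and 533 in sham air. Sham ozone stood below the 3 other groups, which overlapped one another in part. The change of ADREX ozone against sham ozone was 0.49 ± 0.08 (adjusted p = 0.00295; 0.0652 when the compared groups were fitted alone). Its receptor Csf1r had 832, 813, 813 and 769 in ADREX ozone and 692, 724, 717 and 609 in sham ozone, groups that did not overlap, yet the change of 0.24 ± 0.09 did not pass (adjusted p = 0.292).

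Aif1 encodes Iba1, an actin-binding protein that is the common histological marker of microglia. It had 224, 142, 151 and 129.6 in ADREX ozone brainstem, against 87.2, 104, 85.5 and 80.3 in sham ozone brainstem. ADREX ozone 81 was the highest of the 32 libraries, and the groups did not overlap. That library also held the most reads and the lowest endothelial and oligodendrocyte sums in brainstem (613 and 35905 RPM, with endothelial sums of 844 to 956 RPM in the 3 others of its group). The change was 0.82 ± 0.20 (adjusted p = 0.0332), and 7 of 25 alternatives left it above 0.05, at 0.118 at most. Ptprc encodes CD45, a receptor phosphatase of all leukocytes, and it had 75.4, 42.5, 56.97 and 58.4 in ADREX ozone, against 31.6, 38.5, 35.1 and 27.1 in sham ozone. Here too the groups did not overlap, but the change of 0.78 ± 0.20 was near the threshold (adjusted p = 0.0424) and was not called in 13 of 24 alternatives, among them the compared groups alone (0.152).

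Ctss went the other way. It had 524, 772, 643 and 747 in ADREX ozone brainstem, against 989, 1034, 902 and 891 in sham ozone brainstem. All 4 ADREX ozone libraries lay below all 4 sham ozone libraries, a change of -0.52 ± 0.12 (adjusted p = 0.0233). The same side was taken in air, with 664, 729, 820.4 and 662 in ADREX brainstem, against 883, 956, 917 and 839 in sham brainstem, groups that did not overlap either. The Ctss call in ozone was lost without sham ozone 17 (0.0745), 18 (0.0707) or 19 (0.0506), when ADREX ozone 83 was left out (0.0635) and when only the compared groups were fitted (0.145).

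**Figure D2:**
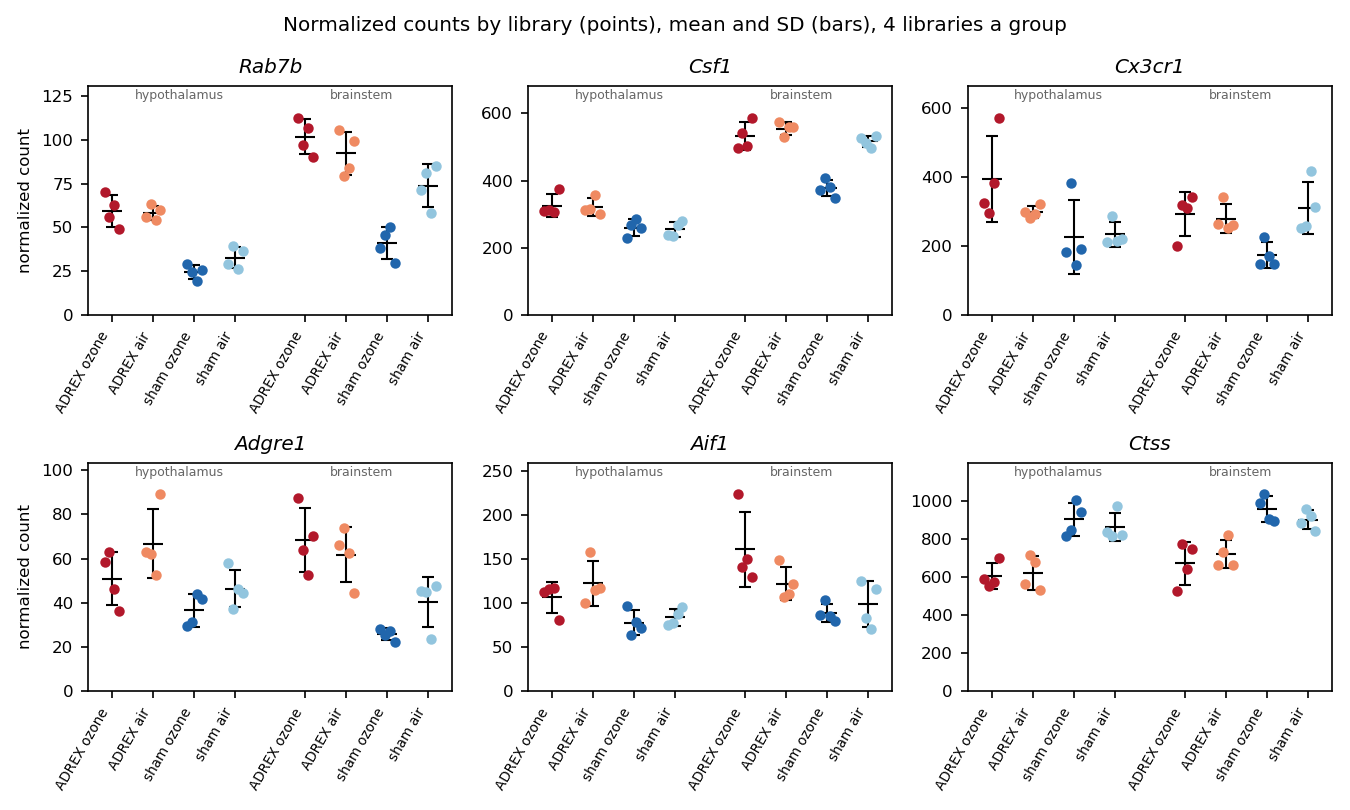
Normalized counts of Rab7b, Csf1, Cx3cr1, Adgre1, Aif1 and Ctss in each library (points), with the mean and SD of each group of 4 (bars), hypothalamus on the left and brainstem on the right of each panel. For Rab7b, sham ozone is the lowest group in both tissues, at 29.5 to 50.4 in brainstem; Ctss is lower in both ADREX groups than in both sham groups.

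Groups did not overlap for 11 genes that were higher in ADREX ozone brainstem (3.78% of all genes were higher in this way) and for Ctss among those that were lower (3.51%). Beside the genes above, these were Itgam, Tyrobp, Selplg, Inpp5d and Lyn, whose changes of 0.39, 0.67, 0.63, 0.35 and 0.42 did not pass. Cx3cr1 had 199.9, 318, 310.3 and 343 in ADREX ozone, against 147, 226, 169.9 and 149 in sham ozone. Only ADREX ozone 81 reached into the sham ozone range, and the change of 0.75 ± 0.19 fell just short (adjusted p = 0.0532). It passed without ADREX ozone 81 (0.00614), without sham ozone 18 (0.0255) and in DESeq2 (0.0129). In 18 of 25 alternatives the Cx3cr1 change was not called, with an adjusted p of 0.189 at most. P2ry13 differed by 0.94 ± 0.30 without passing (adjusted p = 0.159).

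Some markers of other cell types differed in the same comparison. Of 9 endothelial markers tested, 5 were higher in ADREX ozone brainstem and none lower (Tie1 0.97, Kdr 1.07, Slco1c1 0.70, Tek 0.50 and Cdh5 0.72). Of the 9 changes, 7 were positive and 2 negative. The RPM sum of the endothelial list went the other way and was not tested. Its median was 872.6 RPM (612.9 to 955.6) in ADREX ozone and 973.8 RPM (868.2 to 1084) in sham ozone brainstem. Of 8 oligodendrocyte markers, Opalin (0.78) and Cnp (0.47) were higher too, with 6 changes positive, 2 negative and a median of 0.08. Of 8 astrocyte markers, Gfap (0.46) was the 1 that passed, with 4 changes positive, 4 negative and a median of 0.05. Of 7 border macrophage markers tested, Cd163, a haemoglobin scavenger receptor induced by glucocorticoids, was lower (-1.87, adjusted p = 0.0264; 0.0869 without sham ozone 18) and the other 6 did not pass. The part of these cell types in the changes of the listed genes was not tested.

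In hypothalamus the same comparison gave 1 gene higher, Rab7b, and 1 lower, Ctss, of 30, where 2.24% of 14483 genes passed, 1.04% higher and 1.2% lower. At an unadjusted p under 0.05 there were 15 of 30 (12% of all genes), and 24 of 30 changes were positive (51.1% of all genes) with a median of 0.31. Rab7b had 70.4, 55.7, 62.5 and 49.2 in ADREX ozone hypothalamus, against 29.3, 24.5, 19.3 and 25.4 in sham ozone hypothalamus. The groups stood far apart, by 1.24 ± 0.17 (adjusted p = 0.000532). Ctss had 589.7, 554, 574 and 701 in ADREX ozone, against 814, 847, 1002 and 942 in sham ozone. Every ADREX ozone library was below every sham ozone library, a change of -0.58 ± 0.11 (adjusted p = 0.00698). Both calls held in every alternative run that tested them. Rab7b, with a hypothalamus mean of 43.8, was not tested with the filter at a mean of 50.

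Groups did not overlap for 4 higher genes in hypothalamus, Csf1, Itgb2, Rab7b and Cd53 (3.26% of all genes), and for Ctss among the lower ones (3.38%). Csf1 had 308, 311, 305 and 375 in ADREX ozone, against 228, 268, 287 and 258 in sham ozone. ADREX ozone 84 was the highest, and the change of 0.32 ± 0.10 did not pass (adjusted p = 0.136). Aif1 had 113, 116, 118 and 80.9 in ADREX ozone and 97.5, 63.8, 79.02 and 72.1 in sham ozone, overlapping groups with a change of 0.45 (adjusted p = 0.259). Adgre1 and Ptprc differed by 0.46 and 0.73, also without passing (adjusted p = 0.403 and 0.248).

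One liver-rich library, sham ozone 18, held the highest sham ozone value of 3 surface genes in hypothalamus. Cx3cr1 had 326, 295, 384 and 572 in ADREX ozone, against 182, 384, 145 and 189.9 in sham ozone. Gpr34, a receptor for lysophosphatidylserine, had 183, 201, 195 and 288, against 85.2, 214, 36.8 and 94.5. Cd53, a tetraspanin of leukocytes, had 159.6, 139, 162 and 199, against 111, 132, 123 and 92.4. For Cx3cr1 and Gpr34 sham ozone 18 stood within the ADREX ozone range, while the 3 other sham ozone libraries lay below it. The changes of 0.86 ± 0.24, 1.25 ± 0.35 and 0.52 ± 0.15 did not pass (adjusted p = 0.0828 for each). Without sham ozone 18 the adjusted p values were 0.00147 for Cx3cr1, 0.00156 for Gpr34 and 0.0401 for Cd53. Of 25 alternatives, 22 left Cx3cr1 not called (0.35 at most), 23 Gpr34 (0.344 at most) and 22 Cd53 (0.302 at most). Without all libraries rich in liver transcripts, 7 of 30 genes were called in hypothalamus, and in brainstem also 7. Over all genes the calls came to 591 in hypothalamus, against 325 with every library, and to 290 in brainstem, against 352.

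Among markers of other cells, 5 of 9 endothelial markers (Tie1, Kdr, Slco1c1, Tek and Cdh5) were higher in ADREX ozone hypothalamus as well, by 0.77, 0.90, 0.71, 0.47 and 0.87. Changes were positive for 8 of the 9 and negative for 1. The median of the endothelial sum, not tested, was 716.7 RPM (633.1 to 1029) in ADREX ozone and 826.4 RPM (762.5 to 929.4) in sham ozone. The oligodendrocyte genes Opalin, Ermn, Mog and Cnp were higher by 0.96, 0.60, 0.34 and 0.35, 4 of 8 on that list. Of 8 astrocyte markers Aqp4 was higher (0.38) and Aldoc lower (-0.58). Their part in the values of Rab7b and the other listed genes was not tested.

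**Figure D3:**
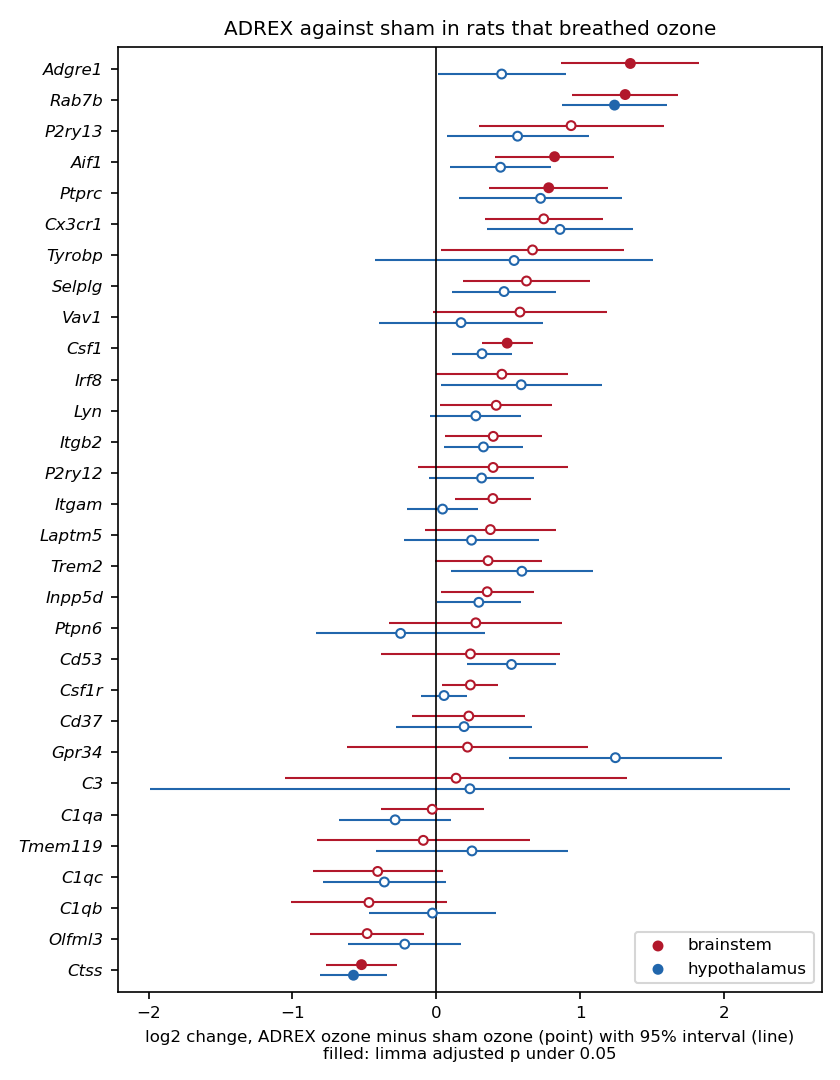
Log2 change of ADREX ozone against sham ozone for the 30 tested genes in hypothalamus and in brainstem (points, filled where the test was passed), with intervals of 95% from limma (lines). Rab7b lies right of 0 in both tissues (1.24 and 1.31), Adgre1 furthest right in brainstem (1.35), and Ctss left of 0 in both (-0.58 and -0.52).

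Sham rats were next compared after ozone and after air. The sham ozone libraries are the same ones used above, so these values are not independent of those of ADREX ozone against sham ozone. In brainstem, ozone was followed by lower Csf1 and Rab7b, 2 of 30 genes, with none higher. Of 14408 genes 0.979% passed, 0.583% higher and 0.396% lower. Of the listed genes 5 had an unadjusted p under 0.05, against 7.7% of all genes. Changes were negative for 25 of 30 genes with a median of -0.21, where 50.7% of all genes were negative.

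Csf1 averaged 378 ± 24.01 in sham ozone brainstem and 517 ± 16.1 in sham air brainstem (SD, n = 4 each). The highest sham ozone library, at 408, was below the lowest sham air library, at 498, and the change was -0.45 ± 0.08 (adjusted p = 0.0114; 0.0599 without sham ozone 20). Rab7b averaged 40.95 ± 9.14 in sham ozone and 73.9 ± 12.1 in sham air. Its groups did not overlap, at 29.5 to 50.4 and 58.1 to 85.1, and the change was -0.85 ± 0.17 (adjusted p = 0.0224). That call was lost without sham air 1 (0.0617), 2 (0.08) or 4 (0.0913), without sham ozone 17 (0.0755) or 20 (0.0903) and with the compared groups alone (0.0797). Cx3cr1 had 147, 226, 169.9 and 149 in sham ozone, against 253, 257, 416 and 313 in sham air. These 3 genes were the ones with no overlap and lower values in ozone (3.69% of all genes), and there was none with higher values (3.49%). The Cx3cr1 change of -0.83 ± 0.19 did not pass (adjusted p = 0.0532), but did without sham ozone 18 (0.0237), without ADREX ozone 81 (0.011) and in DESeq2 (0.0065). In 19 of 25 alternatives this change was not called, with an adjusted p of 0.207 at most.

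In sham hypothalamus no listed gene passed in limma or edgeR, and 2 passed in DESeq2; 1.59% of 14483 genes passed in limma. At an unadjusted p under 0.05 there were 6 of 30, against 12.6% of all genes, and 21 of 30 changes were negative (51% of all genes). P2ry12 had 89.9, 55.9, 64.3 and 86.3 in sham ozone hypothalamus, against 91.5, 124, 129 and 112 in sham air. All 4 sham ozone values were below the sham air values, and the change of -0.63 ± 0.17 gave an adjusted p of 0.0844 (0.0263 in DESeq2, 0.0403 without ADREX ozone 84, and 0.393 when the liver-rich libraries were left out). Trem2, a lipid-sensing receptor, Cd37, a tetraspanin, and Itgam were also lower with no overlap, which makes 4 genes (4.83% of all genes). C1qb was the 1 gene higher with no overlap (4.79%). Trem2 averaged 35.3 ± 10.7 in sham ozone and 49.9 ± 6.67 in sham air, and its change of -0.53 did not pass (adjusted p = 0.35).

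Rab7b and Csf1 did not pass in sham hypothalamus. Rab7b had 29.3, 24.5, 19.3 and 25.4 in sham ozone and 28.9, 39.3, 26.3 and 36.6 in sham air, groups that overlapped, with a change of -0.39 ± 0.17 (adjusted p = 0.35). Csf1 had 228, 268, 287 and 258 in sham ozone and 238, 235, 266 and 279 in sham air, a change of 0.03 ± 0.10. The ozone effect of Csf1 differed between hypothalamus and brainstem by 0.48 ± 0.12 and that of Rab7b by 0.45 ± 0.24. For Csf1 this came at an unadjusted p of 0.000436 that did not hold over all genes (adjusted p = 0.983). No listed gene passed this test of tissue difference in limma, edgeR or DESeq2, and 2 of 30 had an unadjusted p under 0.05 (2.86% of all genes).

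After ADREX, no listed gene passed between ozone and air in either tissue. In brainstem 0 of 30 passed in limma, edgeR and DESeq2 and 0 had an unadjusted p under 0.05, where 0% of all genes passed in limma and 5.91% had an unadjusted p under 0.05. In hypothalamus the counts were also 0 by each tool and 0 unadjusted, with 0% and 8.03% of all genes. No gene of the list was without overlap in brainstem (1.06% of all genes were higher and 1.13% lower in this way). Median changes were 0.01 in brainstem and -0.03 in hypothalamus. Rab7b averaged 102 ± 10.1 in ADREX ozone brainstem and 92.2 ± 12.5 in ADREX air brainstem. Its change of 0.14 had an interval of 95% from -0.22 to 0.51. The interval of Csf1 ran from -0.24 to 0.12 and that of Cx3cr1 from -0.36 to 0.46. Itgb2, the beta chain of the complement receptor, was the 1 gene with no overlap in ADREX hypothalamus, at 101, 92.6, 95 and 94.97 in ozone, against 83.4, 88.3, 82.04 and 83.7 in air (1.8% of all genes were higher and 1.84% lower in this way).

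Whether the ozone effect itself differed between ADREX and sham rats was tested as an interaction. No listed gene passed in limma or edgeR in either tissue. In brainstem 1 passed in DESeq2, 5 of 30 had an unadjusted p under 0.05 (5.3% of all genes), and 0.201% of all genes passed. The 5 were Rab7b (0.99 ± 0.25, adjusted p = 0.172; 0.0498 in DESeq2), Cx3cr1 (0.88 ± 0.27), Csf1 (0.39 ± 0.12), P2ry13 (0.96 ± 0.43) and Adgre1 (0.73 ± 0.32), all positive. In hypothalamus 0 of 30 had an unadjusted p under 0.05, against 4.4% of all genes, DESeq2 passed none, and 0.138% of all genes passed in limma.

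ADREX was then set against sham in air. No listed gene passed in limma or edgeR in either tissue, and in DESeq2 the count was 0 in brainstem and 1, Ctss (adjusted p = 0.0494), in hypothalamus. In limma, 0% of all genes passed in brainstem and 0.0138% in hypothalamus. At an unadjusted p under 0.05 there were 4 of 30 in brainstem (3.78% of all genes) and 6 of 30 in hypothalamus (5.57%). Ctss, Adgre1 and Ptprc were among them in both tissues. Ctss averaged 622 ± 88.6 in ADREX air hypothalamus and 859.9 ± 73.7 in sham air hypothalamus, a change of -0.47 ± 0.11 (adjusted p = 0.369), and 719 ± 74.4 and 899 ± 49.7 in the brainstem groups, a change of -0.33 ± 0.12. Those groups did not overlap in either tissue. Rab7b had 55.9, 63.2, 54.4 and 59.8 in ADREX air hypothalamus, against 28.9, 39.3, 26.3 and 36.6 in sham air hypothalamus. Although every ADREX air library was higher, the change of 0.83 ± 0.17 did not pass (adjusted p = 0.353). Groups did not overlap for Aif1, Csf1, Itgb2 and Rab7b, higher in ADREX air hypothalamus (2.73% of all genes), and for Ctss, lower in both tissues (2.38% of all genes in hypothalamus and 1.64% in brainstem, where 1.65% were higher with no overlap).

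The 3 chains of C1q, the recognition protein of the classical pathway, passed in no comparison within a tissue. C1qb had 159, 206, 120.4 and 107 in sham ozone hypothalamus, against 101, 70.9, 104 and 83.8 in sham air. The sham ozone libraries were all higher, and the change of 0.68 ± 0.21 gave an adjusted p of 0.133 (0.0452 in DESeq2). When the liver-rich libraries were left out the change was 0.40 (adjusted p = 0.472). C1qa had a change of 0.17 and C1qc of 0.18 in the same comparison, neither of which passed. In ADREX ozone against sham ozone, C1qa, C1qb and C1qc differed by -0.03, -0.47 and -0.41 in brainstem and by -0.29, -0.03 and -0.36 in hypothalamus, which is negative in each case where most of the other listed genes were positive.

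C3, which the liver also secretes in large amounts, was the most uneven gene of the list. It stood at 4126, 3659 and 3950 in the 3 hypothalamus libraries rich in liver transcripts (sham ozone 18, sham air 2 and ADREX air 68), against 192 to 991 in the other 13. In brainstem it stood at 5700 in sham ozone 18, against 466 to 1824 in the other 15. All 4 libraries rich in liver transcripts were thus above all others of their tissue, and C3 passed in no comparison. In the libraries under 2000 RPM, median C3 was 980.4 in brainstem and 373.8 in hypothalamus. Liver transcripts there summed to 422 to 1890 RPM and 772 to 1636 RPM. Among these libraries, C3 was 192 to 199 in sham air hypothalamus, with liver transcripts at 859 to 935.5 RPM. In ADREX air hypothalamus C3 was 305 to 398, with liver transcripts at 772 to 960 RPM. The part of liver transcripts in the level of C3 was not tested.

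**Figure D4:**
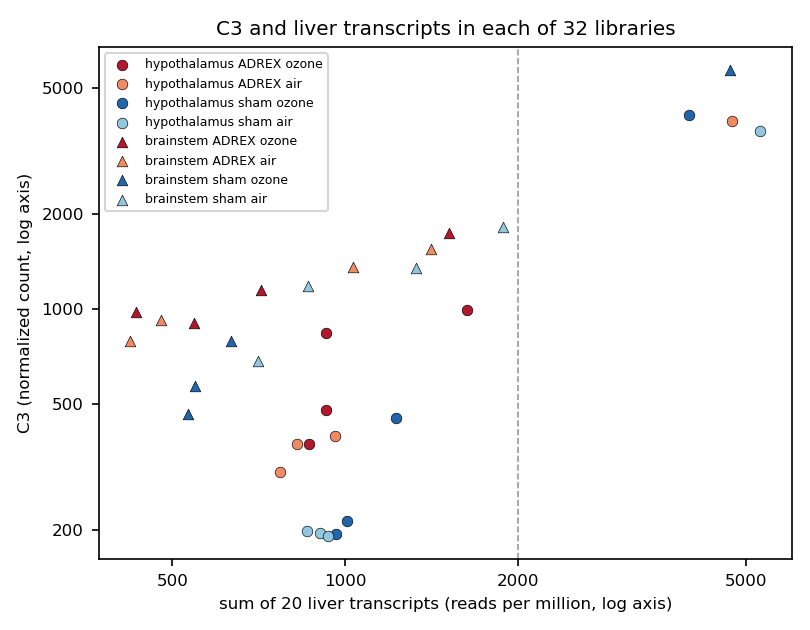
Normalized count of C3 against the summed RPM of 20 liver transcripts in each of 32 libraries, both on log axes; circles are hypothalamus, triangles brainstem, and the dashed line is 2000 RPM. The 4 libraries right of the line have the highest C3, 3659 to 5700.

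The tissues were compared last. In sham air, 6 of 30 genes were lower in hypothalamus than in brainstem and none higher, where 31% of 14533 genes passed, 16% higher and 15.1% lower. At an unadjusted p under 0.05 there were 7 of 30, against 40.2% of all genes. Csf1 had 238, 235, 266 and 279 in hypothalamus, against 527, 510.4, 498 and 533 in brainstem, a change of -1.02 ± 0.09 (adjusted p = 1.05e-10). Rab7b had 28.9, 39.3, 26.3 and 36.6 in hypothalamus, against 71.1, 81.2, 58.1 and 85.1 in brainstem, a change of -1.15 ± 0.17 (adjusted p = 3e-06). Both genes stood far lower in hypothalamus, with no overlap. Itgam, the alpha chain of the complement receptor, had 156, 148, 144 and 145 in hypothalamus, against 196, 210.4, 199 and 228 in brainstem, and Itgb2 had 69.8, 70.9, 65.8 and 79.4, against 93.7, 96.9, 122 and 105. The chains that pair were both lower, with changes of -0.49 ± 0.12 and -0.54 ± 0.14 (adjusted p = 0.00167 and 0.00387), and these 4 genes were the ones with no overlap (16.9% of all genes were lower and 18.6% higher in this way). Ptprc (-0.62, adjusted p = 0.0434) and the secreted protein gene Olfml3 (-0.48, 0.0437) were near the threshold, and were not called in 10 of 16 and 9 of 16 alternatives.

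Averaged over the 4 treatments, 2 of 30 genes were higher in hypothalamus and 12 lower, where 27.1% of all genes were higher and 26.9% lower (54% in all). At an unadjusted p under 0.05 there were 17 of 30, against 58.6% of all genes. C1qc was higher by 0.40 ± 0.11 (adjusted p = 0.00208), with group means of 99.6 to 128 in hypothalamus and 71.4 to 92.4 in brainstem, and P2ry13 by 0.33 ± 0.13 (0.0369), a call lost in 16 of 40 alternatives. Csf1 (-0.77), Itgam (-0.62), Rab7b (-0.82), Ptprc (-0.66), Tyrobp (-0.66), which encodes the adaptor of Trem2, Cd37 (-0.52) and Itgb2 (-0.35) had the largest falls among genes that passed, while C3 (-1.05) did not pass (adjusted p = 0.0505). Csf1r, Olfml3, Selplg, Laptm5 and Aif1 were lower by less, with changes of -0.16 to -0.30. Without the libraries rich in liver transcripts, Aif1, Laptm5, Selplg and P2ry13 were no longer called. Of the classical microglia markers, Cx3cr1 (0.11), P2ry12 (0.01), Tmem119 (0.13) and Trem2 (0.05) did not pass. Markers of other cells differed as well. Oligodendrocyte markers were lower for 8 of 8 in sham air and over the 4 treatments, and their sum was 15981 to 22331 RPM over all hypothalamus libraries and 35905 to 53646 RPM over all brainstem libraries. Of 9 endothelial markers 2 were lower in sham air and 8 over the 4 treatments (median -0.42), and of 10 mural and fibroblast markers 7 in each (median -0.52 over the 4 treatments), with none higher on either list. Over the 4 treatments, 4 of 8 astrocyte markers and 3 of 7 border macrophage markers were lower and 1 of each higher. The part of these cell types in the tissue difference was not tested.

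**Figure D5:**
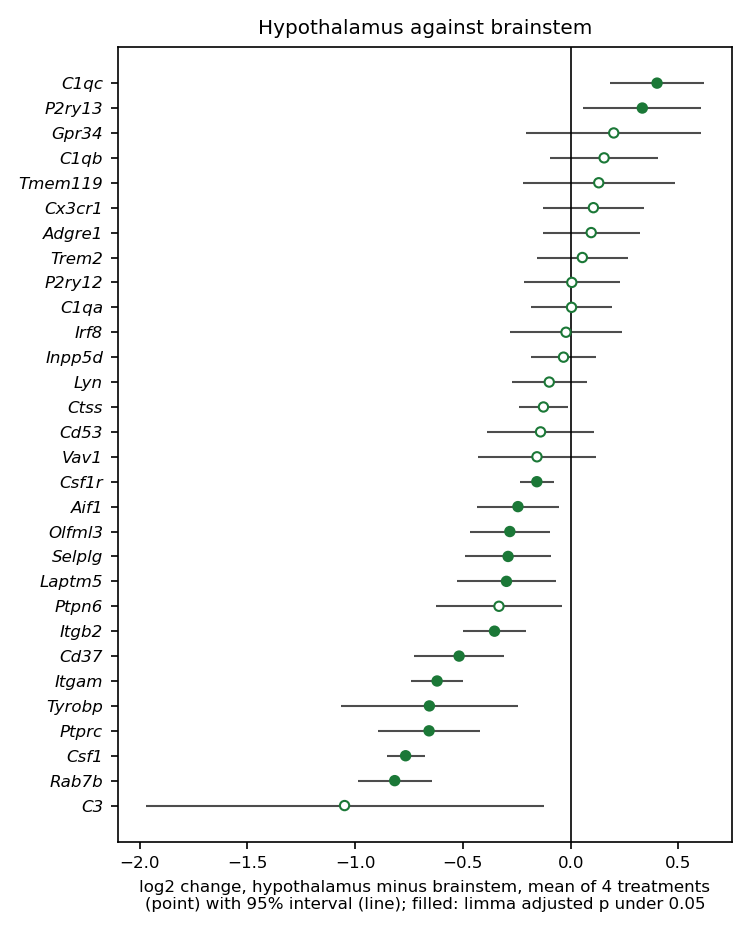
Log2 change of hypothalamus against brainstem for the 30 tested genes as the mean of 4 treatments (points, filled where the test was passed), with intervals of 95% from limma (lines). Csf1 (-0.77), Rab7b (-0.82) and Itgam (-0.62) lie left of 0, and C1qc (0.40) right of it.

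The other genes of the list passed in no comparison within a tissue. Among the receptors, P2ry12 ranged from 55.9 to 132 over the 32 libraries, P2ry13 from 8.72 to 41, and Tmem119, a membrane protein that marks microglia, from 15.7 to 60.3. Trem2 ranged from 21.1 to 65.7 and Tyrobp from 7.67 to 53.8. Among the signalling genes, the kinase gene Lyn ranged from 100.5 to 276, the exchange factor gene Vav1 from 9.82 to 26, the lipid phosphatase gene Inpp5d from 112 to 250, and the tyrosine phosphatase gene Ptpn6 from 15.2 to 57.3. The transcription factor gene Irf8 ranged from 40.4 to 152, the selectin ligand gene Selplg from 49.1 to 192, and Laptm5, which encodes a lysosomal membrane protein, from 36.3 to 106. The lowest Irf8 value was in a sham ozone library of the hypothalamus. Irf8 had changes of 0.46 ± 0.22 in brainstem and 0.59 ± 0.26 in hypothalamus for ADREX ozone against sham ozone (adjusted p = 0.453 and 0.389).

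A second list held 30 other microglia genes, of which 27 were tested in brainstem and 26 in hypothalamus. For ADREX ozone against sham ozone, 4 were higher and 1 lower in each tissue. Of all genes, 1.19% were higher and 1.25% lower in brainstem, and 1.04% and 1.2% in hypothalamus. Sall1, a transcription factor gene of microglial identity, was higher by 0.46 in brainstem and 0.45 in hypothalamus, and Dock8, which encodes an exchange factor of moving leukocytes, by 0.78 and 0.95. Nckap1l (0.68) and Plek (0.87) completed the brainstem set, and Cyth4 (0.79) and Cd33 (1.27) the hypothalamus set. Mertk, a receptor for dying cells that glucocorticoids induce in macrophages, was lower, with a change of -0.77 ± 0.14 in brainstem (adjusted p = 0.00547) and -0.94 ± 0.14 in hypothalamus (adjusted p = 0.000736). In the sham rats, which share the sham ozone libraries, Mertk was higher after ozone in brainstem (0.68) and hypothalamus (0.77), and Sall1 was lower in both (-0.56 and -0.56). Dock8 was lower in sham ozone brainstem (-0.79) and Cyth4 in sham ozone hypothalamus (-0.59). Between sham ozone and sham air, 0.979% of all genes passed in brainstem and 1.59% in hypothalamus. With the compared groups alone, brainstem calls of ADREX ozone against sham ozone were lost for Mertk (0.0542), Nckap1l (0.0513), Sall1 (0.149), Dock8 (0.147) and Plek (0.137), and hypothalamus calls for Sall1 (0.0825), Dock8 (0.202) and Cd33 (0.178). The call of Cd33 was lost in 16 of 24 alternatives and that of Dock8 in sham ozone brainstem in 16 of 25. In hypothalamus, the calls of Mertk in both comparisons, of Cyth4 in ADREX ozone against sham ozone and of Sall1 in sham ozone against sham air held in all 25 alternatives, and the other calls on this list were lost in 1 to 7.

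Genes of activated microglia and other complement genes were called in no comparison within a tissue in limma. Of 26 activated microglia genes 17 were tested in brainstem and 15 in hypothalamus, and of 34 other complement genes 27 and 26. In limma and edgeR 0 of them passed, and an unadjusted p under 0.05 was reached by 0 to 1 of the activated microglia genes and 0 to 2 of the complement genes per comparison. Of all genes, 0% to 2.44% passed in limma per comparison, and 3.78% to 12.6% had an unadjusted p under 0.05. At these rates few or no calls would fall on lists of this length. DESeq2 passed 1, the lysosomal tetraspanin gene Cd63, for ADREX ozone against sham ozone in hypothalamus. On the list of ligands and partners of microglia, of which 15 were tested in each tissue, Ptpn11, which encodes a broadly expressed tyrosine phosphatase, was the 1 gene to pass. It was lower in ADREX ozone than in sham ozone, with changes of -0.69 in brainstem and -0.55 in hypothalamus, and higher in sham ozone than in sham air, by 0.43 and 0.48. Of 9 endothelial markers, Slco1c1, Tie1 and Kdr were lower in sham ozone than in sham air brainstem (-1.04, -0.69 and -0.85), and Slco1c1, Kdr and Emcn in hypothalamus (-1.05, -0.94 and -0.98). The median of the endothelial sum was instead higher in sham ozone, at 973.8 RPM against 896.2 RPM in sham air brainstem. In hypothalamus it was 826.4 RPM in sham ozone and 693.5 RPM in sham air. Of all genes, 0.979% passed in that brainstem comparison and 1.59% in the hypothalamus one.

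Across libraries of a tissue the median correlation between listed genes was small. Taken as deviations from group means, the median Pearson correlation over the 435 pairs of tested genes was 0.0623 in the 16 brainstem libraries and -0.00956 in the 16 hypothalamus libraries, where each pair of genes shares the libraries and their scaling. It was 0.0254 over 15 brainstem and 0.0306 over 13 hypothalamus libraries when those rich in liver transcripts were left out. No other genes were taken for comparison. Counting error in genes with low counts weakens such correlations, so a lack of shared variation cannot be told from counting error here.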

How the data were processed

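Total RNA from brainstem and hypothalamus was extracted with a Direct-zol kit, made into PrepX mRNA libraries on an Apollo instrument and sequenced on an Illumina NextSeq, per the labels. The authors deposited a signal per gene, namely normalized read counts of 22587 genes in 32 libraries. Partek, DESeq2 and the rat build rn6 are named, without roles, per the submitters' processing notes. For the aligner, the annotation and the use of strand in counting: not given in the sources used here. All values of each deposited column were whole multiples of 1 step (0.623 to 1.25; 100% within 0.001 of a whole number), and dividing by it gave 6.44 to 12.4 M whole reads per library. Reads are not tagged as single molecules, so depth bounds counting error only.

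On the log2(value + 1) scale, genes averaging 10 or more entered limma 3.58.1 (R 4.3.3) with a mean-dependent prior, and p-values were adjusted by Benjamini-Hochberg over all genes. A fit per tissue used 16 libraries and 4 group means, and contrasts between tissues 32 libraries and 8. Settings varied were the pseudocount (0.5 and 5), the filter (none, or a mean of 50), quantile normalization, edgeR 4.0.16 and DESeq2 1.42.0 on the recovered reads, the compared groups alone, each library left out (those outside the compared groups, and all alternatives for the further lists, were added after seeing the data), the replicate number as a block between tissues, and the 4 libraries rich in liver transcripts left out. The fits were tested on simulated data. The members and lists were chosen with earlier results of these data known. The rule for full values took the 12 listed genes with the smallest adjusted p among those that passed anywhere. Aif1, Cx3cr1, P2ry12, Gpr34, Cd53 and C3 were added after their values were seen. Promoter windows come from RefSeq (GRCr8), while the files use rn6, so no other coordinates are given. Figures were drawn with matplotlib 3.10.9.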

Additional observations from a re-analysis of the deposited data

Results flagged for a closer look

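Of 144 groups of 4 libraries examined (18 genes in 8 groups), 19 held a library that stood apart from the other 3 by Dixon's test at 95%, which chance alone passes in about 1 in 20 groups. Of the 18 genes, Aif1, Cx3cr1, P2ry12, Gpr34, Cd53 and C3 had been added after their values were seen. All genes also share the same libraries, so the count of 19 cannot be tested against that rate. The 4 widest gaps in counts were those of C3, at 4126 in hypothalamus sham ozone 18, 3659 in hypothalamus sham air 2, 3950 in hypothalamus ADREX air 68 and 5700 in brainstem sham ozone 18, the 4 libraries rich in liver transcripts.

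Brainstem ADREX ozone 81 was low for Gpr34 (34.9, others 154 to 174), Cd53 (57.9, others 187 to 198) and Cd37 (41.1, others 64 to 68.5), and it had the lowest endothelial and oligodendrocyte sums of the 16 brainstem libraries. Brainstem sham air 3 was low for Adgre1 (23.9, others 44.8 to 47.8) and Tyrobp (24.9, others 35.5 to 36.5). Hypothalamus sham air 3 was high for C1qc (151.5, others 96.3 to 105) and Ctss (969.9, others 815.5 to 834). Hypothalamus sham air 2 was high for Cx3cr1 (287.5, others 211 to 220.3) and Gpr34 (189.8, others 128 to 136). Hypothalamus ADREX ozone 84 was high for Csf1 (375, others 305 to 311) and low for Aif1 (80.9, others 113 to 117.5).

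Single values came from brainstem ADREX air 68 for Itgam (204.5, others 245 to 250.2), hypothalamus sham ozone 20 for Cd37 (40.6, others 35.3 to 36), brainstem sham air 4 for Csf1r (767.5, others 705 to 716) and brainstem ADREX air 66 for Cx3cr1 (341, others 252 to 264).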

How the results depend on the processing

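Alternatives were run on changes of single genes only for a part of those named, mainly those that passed or came near, and none of these took the opposite sign. Numbers of the 30 genes that passed shifted as follows. For ozone in sham brainstem 2 became 1 with the compared groups alone and 0 to 3 with a library left out. For ADREX against sham in ozone, 6 in brainstem became 2 with the compared groups alone and 3 to 7 with a library left out, and 2 in hypothalamus became 1 with a mean of 50, 4 in DESeq2, 7 when the liver-rich libraries were left out and 2 to 6 with a library left out. In DESeq2, 0 became 1 for the brainstem interaction, 2 for ozone in sham hypothalamus (0 to 1 with a library left out) and 1 for ADREX in air hypothalamus. Between tissues 6 in sham air became 4 to 7, and 14 over all treatments 13 to 16, with a library left out, and the first was 4 with no filter, a mean of 50, DESeq2 or the block.

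Over all genes, edgeR gave counts within 1.5 times of limma's throughout. DESeq2 gave 237 for 141 genes (ozone, sham brainstem; 73 to 272 with a library left out), 412 for 230 (sham hypothalamus; 115 to 334), 75 and 53 for 29 and 20 (interactions in brainstem and hypothalamus; 18 to 47 and 15 to 37), and 16 for 0 and 15 for 2 (ADREX in air, brainstem and hypothalamus; 0 to 7 for each). The compared groups alone gave 148 for 352 (ADREX against sham in ozone, brainstem; 197 to 444) and 161 for 325 (hypothalamus; 198 to 584), where 591 passed when the liver-rich libraries were left out. Without these libraries the hypothalamus interaction had 32 genes, and ADREX in air hypothalamus 0, as it had with no filter or with the compared groups alone.

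Replicate numbers recur only between tissues, and the labels do not say that they pair libraries. Deviations of same-numbered libraries correlated at -0.531 to 0.612, over 0.1 in 7 of 16 pairs, and 4 of 16 correlated best with their own number. With the replicate number as a block, 4 genes passed in sham air, 14 over all treatments and 0 for the tissue difference of the sham ozone effect. Depth limits Cd68, Spi1, Vav1 and P2ry13 most, the genes with the lowest means.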
